A study of Canis lupus familiaris with 7 samples.

Results

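The keratins and epithelial junction genes described here were 71 of the 24580 genes listed in a table of RNAseq values from dog bone and osteosarcoma (OSA). They were chosen by symbol: 35 keratins, 12 desmosome and plakin genes, 19 claudins and 5 others, namely the surface protein gene *EPCAM* and the regulators *GRHL2*, *ESRP1*, *ESRP2* and *OVOL1*. The family was proposed with the FPKM values of these samples known, so the values of its members are given as a description. RNA came from 4 samples of grossly non-malignant bone (N1, N3, N8 and N9), taken beside tumors, and from 3 OSA specimens (T1, T3 and T10), removed at amputation or straight after euthanasia. Histopathology had established the diagnosis. Breed, age, sex and treatment of the dogs are not given for these samples in the sources used here. The labels call the bone matched to the tumors, but no source says whether samples with the same number came from 1 dog, or whether all samples of a group came from separate dogs. A comparison therefore measures only the spread between these samples.

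Keratins are the intermediate filament proteins of epithelial cells, and a filament forms when a type I chain joins a type II chain. The filaments end at desmosomes, junctions in which desmogleins and desmocollins of neighbouring cells bind each other and plakoglobin, plakophilins and desmoplakin tie them to the filaments. Claudins form the strands of tight junctions, which decide what passes between cells. Bone cells are mesenchymal and use vimentin as their main intermediate filament, so keratins and epithelial junctions are typical of other tissues, although single keratins are known in some bone tumors.

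The samples differed in their makeup before any member was considered. Values are FPKM, fragments scaled to transcript length and to sequencing depth, so levels can be set side by side between genes. How the libraries were scaled to each other is not given. Total FPKM ran from 539648 (N1) to 1752340 (N8), so summed FPKM are not shares of a common total. The table holds no counts, but the spacing of the lowest values gives the number of fragments behind 1 FPKM, which ran from 0.541 (N8) to 1.44 (T10) times that in N1. Of 11 osteoblast marker genes listed, the summed FPKM was 189 in N8 and 590 in N9, against 2007 to 16132 in the other 5 samples. Skeletal muscle markers (18 listed) summed to 112802 in N8 and 83768 in N9, to 1567 in N3, and to 25.6 to 106 in N1 and the tumors. Erythroid markers (15 listed) summed to 40.1 in N1, within the 36.0 to 129 of the tumors, and to 581 or more in the other non-tumor samples. An exact 0 in this table can be a failed estimate: *COL1A1*, the main bone collagen, was listed at 0 in T1 while its partner *COL1A2* stood at 9139 FPKM. In bulk tissue, fewer cells of a type and less RNA per cell cannot be told apart.

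Across the 71 genes, 16 were listed at 0 in all 7 samples, 30 were above 0 but never reached 1 FPKM, and 25 reached 1 FPKM in at least 1 sample. The symbols *PKP1* and *EVPL* had no row, and neither had *KRT7*, *KRT8* or *CLDN5*. T3 had 18 members at 1 FPKM or more, and the other samples had 6 (N8) to 12 (N3 and T10). Summed over all members, FPKM was 470 in T3, against 125 in T1, 99.8 in N1, 68.3 in N3, 61.0 in T10, 49.6 in N9 and 43.3 in N8.

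**Figure D1:**
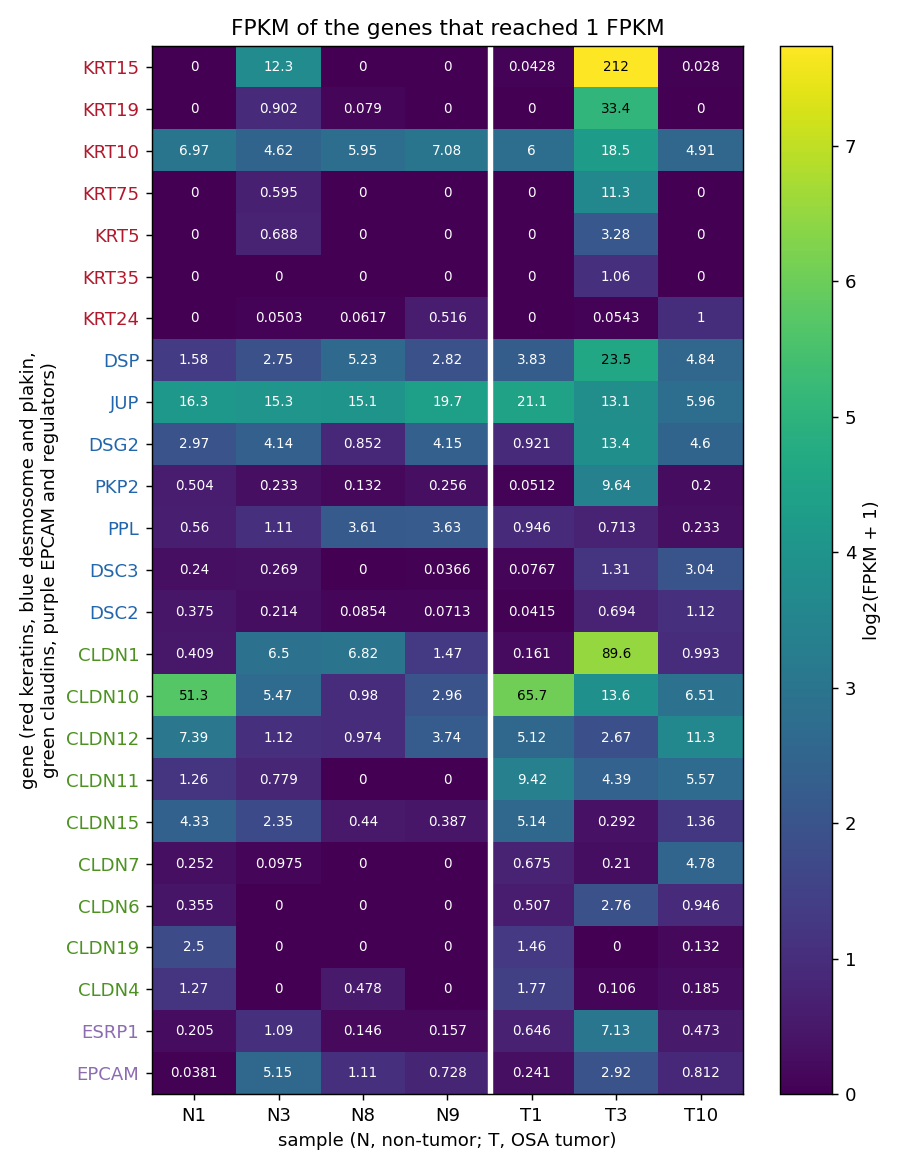
FPKM of the 25 keratin and junction genes that reached 1 FPKM (rows) in 4 non-tumor (N) and 3 OSA tumor (T) samples (columns); the color is log2(FPKM + 1), the number in a cell is the FPKM, and the white line separates the groups. The high keratin values stand in T3, with *KRT15* at 212 FPKM, and *CLDN10* is high in N1 (51.3) and T1 (65.7).

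The keratins separated 1 tumor from all other samples. Their summed FPKM was 281 in T3 and 20.6 in N3, and lay between 6.53 (T1) and 8.93 (N9) in the other 5 samples. T3 held 83.2% of the sum over the 7 samples. Without T3 the tumor mean was 6.84, below the non-tumor mean of 10.8.

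*KRT15* (ENSCAFG00000023529, chromosome 9 from 21249887 to 21254131 in CanFam3.1) encodes a type I keratin of basal cells in stratified epithelium and hair follicles. It stood at 212 FPKM in T3, 12.3 in N3, 0.0428 in T1 and 0.0280 in T10, and was listed at 0 in N1, N8 and N9. T3 was 17.1 times as high as N3, and N3 was far above every remaining sample, so the 2 samples numbered 3 were the only samples at 1 FPKM or more. *KRT15* alone made up 75.1% of the keratin sum in T3.

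The type I keratin gene *KRT19* (ENSCAFG00000023647, chromosome 9 from 21240778 to 21245039), known from simple and glandular epithelia, followed the same order. It was at 33.4 FPKM in T3, 0.902 in N3 and 0.0790 in N8, and listed at 0 in N1, N9, T1 and T10. *KRT75*, a type II keratin of the hair follicle, was at 11.3 FPKM in T3 and 0.595 in N3 and listed at 0 in the other 5 samples. *KRT5*, the type II keratin of basal keratinocytes, had 3.28 FPKM in T3 and 0.688 in N3 and was likewise listed at 0 elsewhere. *KRT75* and *KRT5* lie in 1 interval of chromosome 27 (2567144 to 2827413) with 11 listed genes, and keratin genes resemble each other in sequence, so reads may have been divided among them.

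N3 stood at 5.84% of T3 for *KRT15*, 2.70% for *KRT19*, 5.27% for *KRT75* and 21.0% for *KRT5*, so no single proportion held for the 4 genes. *KRT14*, the usual type I partner of *KRT5*, reached 0.639 FPKM in T3 and was listed at 0 in every other sample. *KRT17*, another type I keratin of hair follicles and injured skin, reached 0.626 FPKM in T3. The hair keratin gene *KRT35* was at 1.06 FPKM in T3 alone.

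*KRT10* (ENSCAFG00000016007, chromosome 9 from 21863767 to 21870464), which encodes the type I keratin of upper epidermal layers, was the one keratin above 1 FPKM in all 7 samples. Non-tumor samples ranged from 4.62 FPKM (N3) over 5.95 (N8) and 6.97 (N1) to 7.08 (N9), and tumors from 4.91 (T10) over 6.0 (T1) to 18.5 (T3). T3 was highest by 2.62 times, and the other 6 samples lay close together. Non-tumor bone had a mean of 6.16 ± 1.14 FPKM (SD, n = 4), and OSA tumor one of 9.82 ± 7.58 FPKM (SD, n = 3). *KRT10* made up 68.7% to 98.0% of the keratin sum outside N3 (22.5%) and T3 (6.59%).

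By chain type, the 19 type I keratins on chromosome 9 summed to 267 FPKM in T3 and the 15 type II keratins on chromosome 27 to 14.9 FPKM. In N3 these sums were 18.8 and 1.77 FPKM. The type II keratins were listed at 0 throughout in N8, N9 and T10. Of the type I rows 2 were at 0 in all samples, and of the type II rows 7. *KRT24*, a type I keratin, was the only other one to reach 1 FPKM, at 1.00 in T10. The row named *KRT18* lies on chromosome 32 (14565097 to 14566081), away from both keratin clusters, and was listed at 0 in all 7 samples. *KRT18* normally pairs with *KRT8*, so the keratin pair of simple epithelium is not analysed here.

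**Figure D2:**
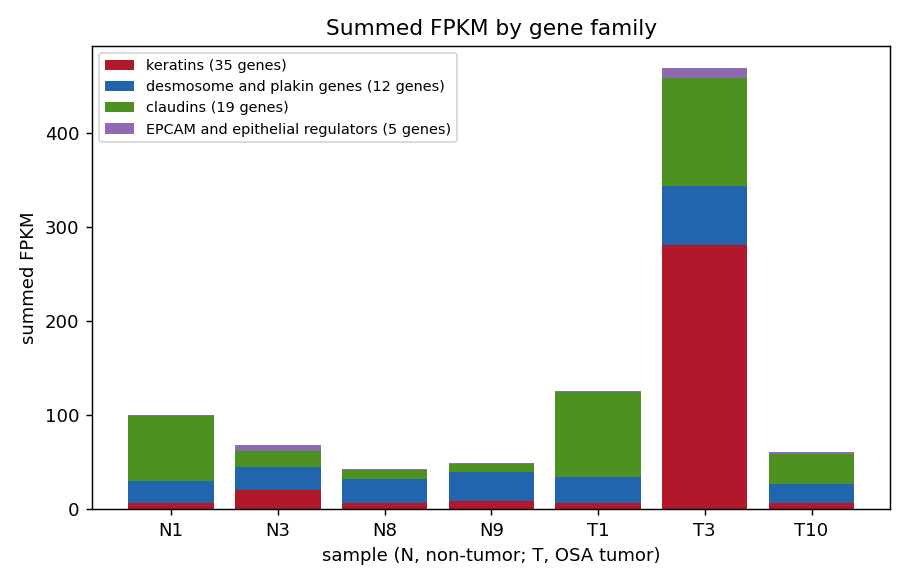
Summed FPKM of the 4 gene families (stacked bars, linear axis from 0) in each non-tumor (N) and OSA tumor (T) sample. Keratins make up 281 of the 470 FPKM in T3, and claudins most of the sums in N1 and T1.

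The desmosome genes were present in every sample and summed to 20.1 (T10) to 30.8 (N9) FPKM outside T3 and to 63.1 FPKM in T3. *JUP* (ENSCAFG00000015912), the gene of plakoglobin, which also serves at adherens junctions, made up 59.6% to 77.1% of this sum in the 4 non-tumor samples and T1. Non-tumor values lay between 15.1 (N8) and 19.7 (N9), with N3 at 15.3 and N1 at 16.3, and the tumors had 21.1 (T1), 13.1 (T3) and 5.96 (T10). The groups overlapped, with T1 highest and T10 lowest. Endothelial cells also use plakoglobin at their junctions. The 12 endothelial markers summed to 44.5 FPKM in T10 and 50.2 in T3, and to 163 to 408 in the other samples, with none of the 12 at 0 throughout; their part in the *JUP* values was not tested.

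*DSP* (ENSCAFG00000009570), the gene of desmoplakin, which anchors keratin to the desmosome, was at 23.5 FPKM in T3. The other tumors were at 3.83 (T1) and 4.84 (T10), inside the non-tumor range of 1.58 (N1) to 5.23 (N8), with N3 at 2.75 and N9 at 2.82. *PKP2* (ENSCAFG00000010484, chromosome 27 from 16023143 to 16109247, an interval of 2 listed genes) encodes a plakophilin of heart and simple epithelium. Its FPKM was 9.64 in T3, 0.200 in T10 and 0.0512 in T1, and 0.504 (N1), 0.256 (N9), 0.233 (N3) and 0.132 (N8) in bone. T3 exceeded the next sample 19.1 times, and here that sample was N1 and not N3. The desmoglein gene *DSG2*, expressed in simple epithelia and heart, was at 13.4 FPKM in T3, 4.60 in T10, 4.15 in N9, 4.14 in N3, 2.97 in N1, 0.921 in T1 and 0.852 in N8.

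Other desmosome genes at 1 FPKM or more in a sample had another order. The desmocollin genes *DSC3* and *DSC2* were highest in T10, at 3.04 and 1.12 FPKM, with T3 next at 1.31 and 0.694. All other samples were at 0.375 FPKM or less in both genes. *PPL*, whose product periplakin joins desmosomes to the cornified envelope of skin, was at 3.63 FPKM in N9, 3.61 in N8 and 1.11 in N3, and at 0.946 or less in N1 and the tumors. *DSG1* and *DSG4*, desmogleins of the upper epidermis and the hair, were listed at 0 in all samples, and *DSG3* stayed under 1 FPKM but had the order of *KRT15*, with 0.335 FPKM in T3, 0.0706 in N3 and at most 0.0262 elsewhere.

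The claudins differed in which samples were high. *CLDN1* (ENSCAFG00000029313, chromosome 34 from 22302592 to 22319496), which encodes the barrier claudin of epidermis, was at 89.6 FPKM in T3, against 0.161 in T1 and 0.993 in T10. Non-tumor bone had 6.82 (N8), 6.50 (N3), 1.47 (N9) and 0.409 (N1). T3 was 13.1 times as high as N8, and the other tumors lay below N3, N8 and N9. *CLDN6*, a claudin of embryonic epithelium, had 2.76 FPKM in T3, 0.946 in T10, 0.507 in T1 and 0.355 in N1, and was listed at 0 in N3, N8 and N9. T3 was highest, and all 3 tumors were above the non-tumor samples.

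Some claudins were highest in N1 and T1. *CLDN10* (ENSCAFG00000005458, chromosome 22 from 46198911 to 46225152), whose product forms ion channels between cells, was at 51.3 FPKM in N1 and 65.7 in T1. The remaining samples were at 5.47 (N3), 0.980 (N8), 2.96 (N9), 13.6 (T3) and 6.51 (T10). *CLDN10* made up 74% of the claudin sum in N1 and 72.7% in T1. *CLDN15*, known from the intestine, was also highest in these samples, at 4.33 FPKM in N1 and 5.14 in T1, and ran from 0.292 (T3) to 2.35 (N3) elsewhere. *CLDN19* and *CLDN4*, claudins of the kidney and of many epithelia, reached 1 FPKM only in N1 (2.5 and 1.27) and T1 (1.46 and 1.77). The osteoblast markers, none of the 11 at 0 throughout, were also highest in N1 (summed FPKM 16132) and T1 (12829), against 189 to 3922 elsewhere. The T1 sum counts *COL1A1* as 0, which can be a failed estimate. Over all tested genes N1 and T1 correlated at 0.917 on the log2 scale, above the 0.550 to 0.753 of the other pairs of a tumor and a non-tumor sample. The part of osteoblasts in these claudin values was not tested.

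One tested claudin had groups that did not overlap. *CLDN11* (ENSCAFG00000014851, chromosome 34 from 34912449 to 34928436) encodes the claudin of myelin and of the blood-testis barrier. The tumors had 9.42 (T1), 5.57 (T10) and 4.39 (T3) FPKM. N1 had 1.26 and N3 0.779, and the gene was listed at 0 in N8 and N9. The lowest tumor, T3, thus stood above the highest non-tumor sample, N1. Chondrocyte markers (9 listed, none at 0 throughout, 3 of 7 tested higher in tumor) had summed FPKM of 887 (T1), 557 (T10) and 142 (T3). In non-tumor bone the sums were 243 (N1, above T3), 32.4 (N3), 13.4 (N9) and 11.1 (N8). The part of chondrocytes in the *CLDN11* values was not tested. *CLDN12*, a widely expressed claudin, was highest in T10 at 11.3 FPKM but overlapped between groups, since N1 had 7.39, T1 5.12, N9 3.74, T3 2.67, N3 1.12 and N8 0.974. *CLDN7* reached 4.78 FPKM in T10 and at most 0.675 elsewhere; its interval on chromosome 5 holds 19 listed genes.

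The splicing regulator gene *ESRP1* (ENSCAFG00000009305), which acts in epithelial cells, was at 7.13 FPKM in T3, 1.09 in N3, 0.646 in T1 and 0.473 in T10, and at 0.205 (N1), 0.146 (N8) and 0.157 (N9). T3 was highest and N3 next, the order seen in *KRT15* and *KRT19*. *EPCAM*, a surface adhesion protein gene of most simple epithelia, was instead highest in N3 at 5.15 FPKM, followed by T3 at 2.92, N8 at 1.11, T10 at 0.812, N9 at 0.728, T1 at 0.241 and N1 at 0.0381. *ESRP2* did not exceed 0.274 FPKM (N9), *GRHL2* 0.465 (T10) and *OVOL1* 0.113 (T1).

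**Figure D3:**
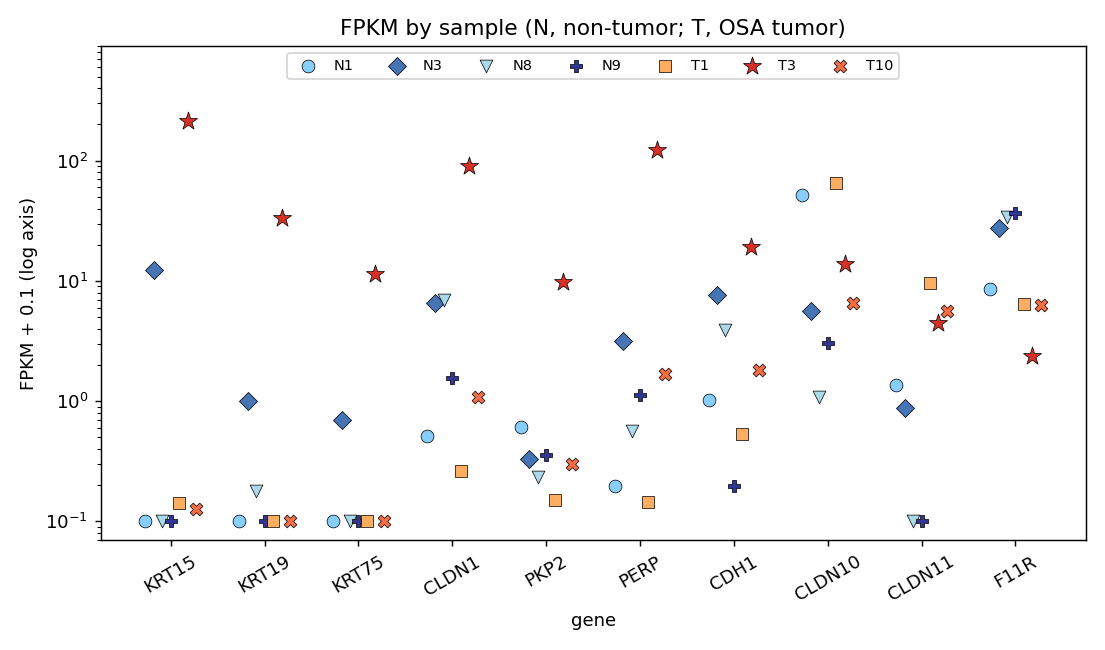
FPKM + 0.1 on a log axis for 10 genes in each non-tumor (N, blue) and OSA tumor (T, orange and red) sample; points on the lowest level at 0.1 are listed at 0. T3 is highest in the 7 genes at the left, N1 and T1 in *CLDN10*, and the groups are apart in *CLDN11* and in *F11R*.

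T3 was singled out after its values were seen, and as a single tumor it has no replicate. Of the 55 members above 0, 10 (18.2%) had at least 80% of their summed FPKM in T3, against 372 of 18759 genes above 0 (1.98%). These 10 were *KRT5*, *KRT14*, *KRT15*, *KRT17*, *KRT19*, *KRT32*, *KRT35*, *KRT75*, *CLDN1* and *PKP2*, of which *KRT14*, *KRT17* and *KRT32* stayed under 1 FPKM. T3 was the highest sample in 20 members (36.4%) and in 17.9% of all genes above 0. Among the tested genes 89 had such a share in T3, and N3 was next highest in 52 of them. The 76 of these genes above 0 in N3 stood there at a median of 5.06% of T3. Of the 5 members among the 89 genes, N3 was next highest in 3, namely *KRT15*, *KRT19* and *KRT75*.

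OSA tumor was compared with non-tumor bone by limma on log2(FPKM + 1), over the 13507 genes whose FPKM averaged 1 or more across the 7 samples. Only 16 of the 71 members passed this filter, and 5 of the 16 did so with 80% or more of their FPKM in T3. The member nearest above the limit was *ESRP1* (mean 1.41 FPKM) and the nearest below was *CLDN7* (0.859). The limits that the study set on Cuffdiff results, a log2 fold change of 1 or more in size and an unadjusted p below 0.05, were applied to limma. By limma they were passed by 1 member upward and 0 downward. The study's own Cuffdiff calls are not compared here and can differ. Among all tested genes 3.28% passed upward and 3.58% downward, 6.86% in all. After each sample's FPKM were scaled to 1 common sum, the median log2 fold change of all genes rose from -0.02 to 0.12, and 64.5% of the genes that passed were lower in tumor instead of 52.2%. The member was *CLDN11*, with a log2 fold change of 2.34 (standard error 0.54). *CLDN11* was tested only because of the tumors, with a mean of 6.46 FPKM there and 0.510 in non-tumor bone, where 2 of the 4 values are listed at 0. It passed in all 16 alternative fits, at 1.90 to 4.24, the highest with a pseudocount of 0.1. These fits reuse the same samples and are not separate support. *CLDN11* was also the 1 tested member with groups that did not overlap and tumor higher, against 3.04% of all genes. Groups that did not overlap with tumor lower were found in 0 tested members and 2.81% of genes. By limma with Benjamini-Hochberg adjustment 0 members and 0 of all genes had an adjusted p under 0.05, where an unadjusted p under 0.05 was reached by 1 member and 927 genes.

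The log2 fold change of the 16 members had a median of 0.88, beside -0.02 over all tested genes. This median rested on T3. Without T3 it was -0.18, beside -0.04 over all genes, 7 of the 16 changed sign, and *CLDN11* still passed, beside 4.46% of all genes in either direction. The log2 fold change of *KRT15* was 1.68 (standard error 1.82) with T3 and -0.88 without it. For *KRT19* it was 1.44 (standard error 1.16) against -0.26, for *KRT75* 1.04 (standard error 0.89) against -0.17, and for *PKP2* 0.90 (standard error 0.81) against -0.18. *CLDN1* was at 0.65 (standard error 1.39) and at -1.31 without T3. *DSP* was at 1.18 (standard error 0.65) and 0.45. With the replicate number as a random block *DSP* also passed, at 1.39. It did not pass with the fixed block over the samples numbered 1 and 3, at 1.81. Of the claudins that T3 did not carry, *CLDN10* was at 1.44 (standard error 1.12), and at 2.39 without N1, where it passed as well. *JUP* was at -0.43 (standard error 0.50), *PPL* at -0.85 (standard error 0.58) and *EPCAM* at -0.09 (standard error 0.72), and none of the 3 passed.

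**Figure D4:**
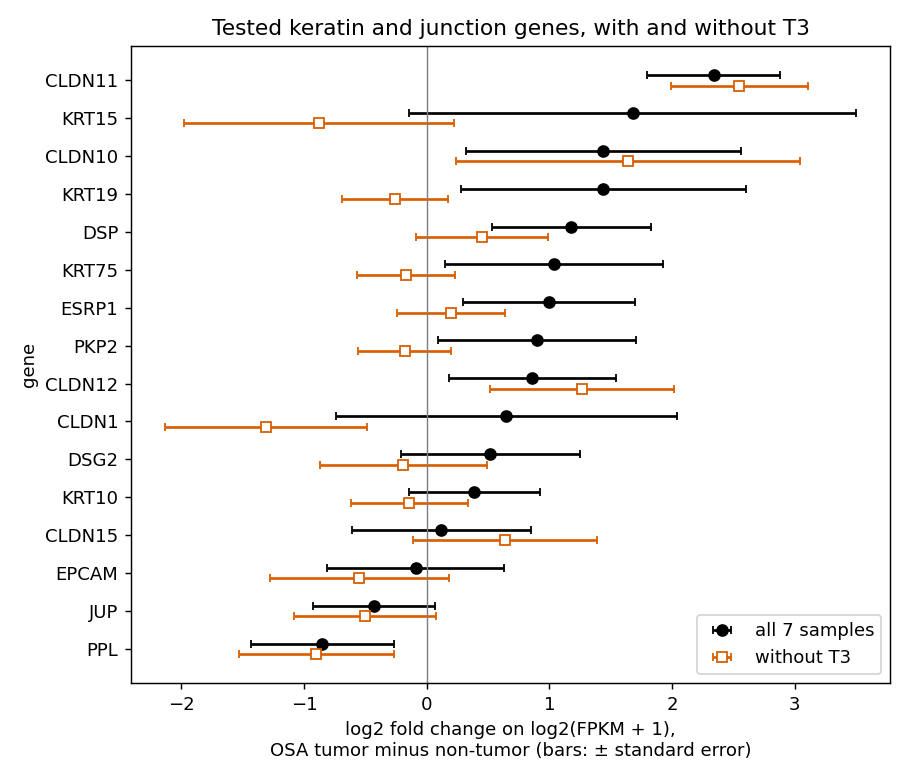
Log2 fold change on the log2(FPKM + 1) scale, OSA tumor minus non-tumor, with standard errors from limma, for the 16 tested genes with all 7 samples (black circles) and without T3 (open orange squares). *CLDN11* stays above 2, while *KRT15* moves from 1.68 to -0.88.

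Other genes of the junctions and of epithelium were taken from lists. Of 20 tight and adherens junction partners 17 had a row and 13 were tested: 1 was higher, 1 lower, and 11 did not pass. The lower gene was *F11R* (ENSCAFG00000012666), whose product JAM-A sits at tight junctions of epithelium and endothelium and on blood cells. Non-tumor bone had 36.8 (N9), 34.1 (N8), 27.5 (N3) and 8.41 (N1) FPKM, and the tumors had 6.36 (T1), 6.22 (T10) and 2.28 (T3). The groups did not overlap, and the log2 fold change was -2.13 (standard error 0.61). *F11R* passed whichever sample was left out, and did not pass with the fixed block over the samples numbered 1 and 3. The erythroid markers (11 of 15 lower by the same limits) summed to 581 FPKM in N9, 5833 in N8, 3753 in N3 and 40.1 in N1, and to 44.1 in T1, 129 in T10 and 36.0 in T3. The endothelial markers (4 of 12 lower) summed to 408, 163, 199 and 196 FPKM in the same order of non-tumor samples, and to 257 in T1, 44.5 in T10 and 50.2 in T3. The part of these cells in the *F11R* values was not tested.

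The higher partner was *CTNNB1*, the gene of beta-catenin, which serves both at adherens junctions and in Wnt signalling. The tumors had 1167 (T3), 648 (T10) and 253 (T1) FPKM, and non-tumor bone had 396 (N1), 158 (N9), 142 (N3) and 110 (N8), a log2 fold change of 1.70 (standard error 0.71). T1 lay below N1, and *CTNNB1* no longer passed when N3, N8, N9, T3 or T10 was left out, with FPKM rescaled to the same sum, or with either replicate block, at 1.19 to 2.29 over all alternatives. *PERP*, a desmosomal membrane protein gene and p53 target, did not pass but had the T3 pattern, with 123 FPKM in T3, 3.05 in N3 and at most 1.58 in the other 5 samples. *CGNL1*, a tight junction plaque protein gene, was at 20.6 FPKM in T3 and at most 3.08 elsewhere. T3 was the highest sample in 6 of the 17 listed partners. *TJP1* (38.9 FPKM), *PKP4* (24.1) and *OCLN* (4.86) were highest in N9, with T3 at 8.57, 13.5 and 2.77.

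The list of epithelial transcription factors and surface markers had 19 rows of 20 symbols, 8 of them tested, with 1 higher, 0 lower and 7 that did not pass. T3 was the highest sample in 9 of the 19. *CDH1*, the gene of E-cadherin, was at 19.2 FPKM in T3, 7.5 in N3, 3.84 in N8, 1.71 in T10, 0.913 in N1, 0.436 in T1 and 0.0964 in N9. *GRHL1*, a grainyhead transcription factor that regulates desmosomal genes, was at 8.85 FPKM in T3, 2.16 in T1 and 1.94 in T10, above the non-tumor samples at 0.479 (N8) to 1.81 (N1), and did not pass. *CDH3*, the gene of P-cadherin, did not pass either, with 4.48 (T3), 1.91 (T1) and 1.20 (T10) FPKM above the non-tumor samples at 0 (N9) to 0.969 (N1). *CDH3* did pass with the replicate number as a random block, with either alternative filter and without T10. *TP63*, the master regulator of basal epithelial cells, was at 0.585 FPKM in T3 and was highest in N9 at 12.7, one of the samples with high muscle markers. The transcription factor gene *KLF5* was highest in N3 at 20.7 FPKM, with 13.0 in N8, 11.9 in T3 and 10.2 in N9. It was at 1.54 in T10, 0.992 in T1 and 0.569 in N1, and did not pass. *MAL2* and *LAD1* were highest in N8, and *ELF3* and *AP1M2* in N3. The gene that passed was *SPINT2*, a protease inhibitor gene, with 56.5 (T3), 45.2 (T10) and 14.7 (T1) FPKM in the tumors against 3.24 (N9), 14.9 (N8), 16.1 (N3) and 16.3 (N1). T1 lay below N1, N3 and N8. The log2 fold change of *SPINT2* was 1.55 (standard error 0.68), and it too stopped passing when N3, N8, N9, T3 or T10 was left out. It also did not pass in 5 other alternatives, among them the fixed block over only the samples numbered 1 and 3. Over all alternatives it ran from 0.81 to 2.12.

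The cornified envelope list had 15 rows of 20 symbols, of which 4 were at 0 in all samples, among them *IVL* (involucrin), and 3 were tested without any passing. Its summed FPKM was 13.8 in T3, 9.92 in N3 and 3.57 to 6.50 elsewhere. *TGM1*, a transglutaminase gene of the cornified envelope, was at 6.46 FPKM in T3, 4.99 in N1 and 4.26 in T1 and at most 0.782 in the rest. The kallikrein gene *KLK10* had 87.8% of its sum in T3, at 3.55 FPKM against at most 0.276. T3 was the highest sample in 3 of the 15 rows. *CSTA* (3.52 FPKM), *SFN* (2.74) and *TGM5* (2.34) were highest in N3, and *ABCA12* (2.66) in T10. The hemidesmosome and epithelial basement membrane list, with 9 rows of 10 symbols, had 5 tested genes and none that passed, and T3 was the highest sample in 0 of its 9 genes.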

How the data were processed

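RNAseq values of 4 non-tumor bone and 3 OSA tumor samples were analysed. Per the study's methods, the authors used Trim Galore for trimming, Tophat2 with CanFam3.1 and the Ensembl iGenomes annotation for alignment, and Cufflinks/Cuffdiff for FPKM per gene and sample; versions and the scaling between libraries are not given in the sources used here. FPKM were used as deposited, with 0 per-sample columns left unused. From the authors' comparison table only intervals were read, with 1 added to each start; its group values, fold changes and p-values, the authors' own results, were not used.

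Members were the rows whose symbol met the rule. The members and lists were chosen with earlier results of these data known. Named were members that reached 1 FPKM in a sample with all their values, list genes past the threshold, and list genes and lower members chosen after their values were seen.

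The groups were compared with limma 3.58.1 (R 4.3.3; moderated test with mean-variance trend) on log2(FPKM + 1), for genes averaging 1 FPKM or more, and p-values were adjusted by Benjamini-Hochberg over all 13507 genes. The pseudocount understates changes of low genes. The fit was tested on simulated data. No counts were analysed, so no counting error could be given. Relative depth was read from the lowest FPKM steps, and all 21 pairs of samples gave the same ratios within 0.05 on the log2 scale. Alternatives were a pseudocount of 0.1, other filters, scalings, weights, blocks by replicate number, and each sample left out. Tables were handled in Python 3.11.15 with pandas 2.3.3 and drawn with matplotlib 3.10.9.

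The 11 marker and gene lists were described by counts; the adipocyte list had 4 lower of 6 tested, the chondrocyte list 3 higher of 7, the osteoblast list 2 higher of 11, the skeletal muscle list 15 lower of 18, and the list of intermediate filaments outside the keratins 1 lower of 8.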

Additional observations from a re-analysis of the deposited data

Results flagged for a closer look

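Among the 4 non-tumor samples, N3 stood apart from the others on the log2 scale in 4 of the 16 tested members, by Dixon's criterion at 95%: *KRT15* at 12.3 FPKM, *ESRP1* at 1.09, *KRT19* at 0.902 and *KRT75* at 0.595. Chance flags about 1 in 20 groups. For *KRT15* and *KRT75* the other 3 samples were all listed at 0, so any value above 0 in N3 would have met the criterion, and these are not support for a difference. *ESRP1*, *KRT19* and *KRT75* were among the tested genes only because of T3. In all 4 genes N3 was higher than N1, N8 and N9, and T3 was the only sample above it. Endothelial, muscle and erythroid marker sums of N3 lay within the range of the other non-tumor samples. The epithelial transcription factor and surface marker sum of N3, 52.9 FPKM, lay above their 28.4 to 45.0. Its cornified envelope sum, 9.92, lay above their 3.57 to 5.98, and its hemidesmosome and basement membrane sum, 72.1, below their 98.7 to 288.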

How the results depend on the processing

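The count of members past the threshold was 1 upward and 0 downward as reported. The same count was found under 7 of the 9 alternatives other than leaving 1 sample out. Among these 7 was the fixed replicate block, fitted only on the samples numbered 1 and 3. The count was 2 in total, both upward, without the filter on low values (55 members fitted, *CLDN6* added at 1.04). With the replicate number as a random block it was also 2, both upward (*DSP* added at 1.39). It was 1 to 2 when 1 sample was left out (*CLDN10* added without N1). The median log2 fold change was 0.12 without the filter, and ran from -0.18 (without T3) to 1.41 (without T10). The number of all genes past the threshold, 926, was 1857 with sample weights, 241 with the fixed replicate block over the samples numbered 1 and 3, and 319 (without N8) to 1997 (without N1) when 1 sample was left out. Only 2 numbers are shared, and no source says that they mark 1 dog. Across genes, the deviations from the group means correlated at 0.422 for N1 with T1 and 0.211 for N3 with T3, and at -0.273 to 0.135 for the other pairs.

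Signs of single members turned in *EPCAM* (0.09 with a pseudocount of 0.1 and 0.07 with FPKM rescaled to the same sum), *CLDN15* (-0.13 with the random and -0.59 with the fixed replicate block), *JUP* (0.07) and *PPL* (0.01), both with the fixed block. With 1 sample left out the log2 fold change ran from -0.55 to 0.41 for *EPCAM*, -0.49 to 0.64 for *CLDN15*, -0.82 to 0.01 for *JUP*, -0.18 to 1.49 for *PKP2*, -0.14 to 0.72 for *KRT10*, -0.19 to 1.27 for *DSG2*, -0.88 to 2.96 for *KRT15*, -0.26 to 2.29 for *KRT19*, -0.17 to 1.64 for *KRT75* and -1.31 to 1.83 for *CLDN1*. The cause was not tested beyond the sample left out.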

Other observations

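Of 14 listed intermediate filament genes outside the keratins 8 were tested, with 0 higher, 1 lower and 7 that did not pass, and a median log2 fold change of 0.18. The highest values were 1.46 (*VIM*), 1.40 (*BFSP1*) and 1.32 (*LMNA*), and the lowest -6.11 (*DES*) and -1.99 (*SYNM*). *VIM*, the gene of vimentin, was at 1227 (T10), 1206 (T3) and 1066 (T1) FPKM in the tumors, so T3 had a vimentin level like that of the other tumors beside its keratins. Non-tumor bone had 1155 (N1), 452 (N3), 318 (N8) and 191 (N9) FPKM of *VIM*. *DES*, the gene of desmin in muscle filaments, was at 2524 FPKM in N8 and 3268 in N9, 51.0 in N3 and 3.01 in N1, and at 1.65 to 2.33 in the tumors, with a log2 fold change of -6.11 (standard error 2.05 by limma). Its interval holds 11 listed genes, and it did not pass without N8, T1 or T10 or with the fixed block, at -8.00 to -2.28 over all alternatives. *SYNM*, a muscle filament gene that binds desmin, was at 106 FPKM in N8 and 264 in N9 and at most 5.77 in the other samples. The summed FPKM of the 18 skeletal muscle markers, a list that includes *DES*, was also highest in N8 and N9, as given with the samples' makeup above.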
